A study of Mus musculus with 4 samples.

Results

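The cells described here are the endocrine cells of cluster 6 in a single-cell RNA survey of the mouse stomach, set against each other by how much ghrelin RNA they held. A cell was called Ghrl-high when Ghrl made up at least 1% of its unique molecular identifiers (UMIs, the counted RNA molecules), and Ghrl-low when Ghrl was under 1% and Hdc was at least 0.1%. By this rule 123 cells were Ghrl-high and 75 were Ghrl-low, and 26 of the 224 cells of the cluster fell in neither group. The whole series held 4449 cells in 10 clusters.

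All cells came from Rosa26iH2b-GFP mice, which carry a doxycycline-inducible histone H2b-GFP transgene at Rosa26 under the TRE3G promoter together with the Tet-on 3G activator. The mice were 14 weeks old and had received doxycycline for 4 weeks followed by a chase of 6 weeks without it, so that GFP marked cells that had kept the label. Stomach cells negative for Cd45 and Cd31 were sorted either as Epcam+ and GFP+ (the GFP+ libraries, 2 replicates) or as Epcam+ alone (the Epcam+ libraries, 2 replicates), and cells sorted from 2 mice were combined before droplet capture. Whether replicate libraries trace back to different animals is not given in the sources used here, and the p-values therefore speak only of variation among 4 libraries, part or all of which may be technical.

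Ghrelin is the peptide hormone of the gastric X/A-like cell. Its precursor, encoded by Ghrl, is acylated by the enzyme Mboat4 and cut by prohormone convertases inside secretory granules. Histamine is made from histidine by the enzyme encoded by Hdc, is loaded into vesicles by the transporter Slc18a2, and in the mammalian stomach is released by enterochromaffin-like (ECL) cells, which answer gastrin through the receptor Cckbr and drive acid secretion by parietal cells. Both are endocrine cells with granules rich in chromogranins.

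Ghrl (chr6:113716119-113719880, minus strand, GRCm38) and Hdc (chr2:126593667-126619299, minus strand) are the genes the cells were chosen by, from the same counts, so their levels are a description. Ghrl had 109409, 45494, 90605 and 81616 CPM (UMI counts scaled to a common library total, with factors from the trimmed mean of M-values, TMM) in the Ghrl-high cells of GFP+ 1, GFP+ 2, Epcam+ 1 and Epcam+ 2, against 2658, 3754, 1861 and 4315 CPM in the Ghrl-low cells of the same libraries. Hdc had 3256, 3456, 3969.5 and 3570.4 CPM in Ghrl-high cells, against 2533, 2340.1, 3368 and 2971 CPM in Ghrl-low cells. The Ghrl-high cells thus carried as much Hdc as the cells called for it, and the median cell held 0.269% Hdc in the Ghrl-high group and 0.258% in the Ghrl-low group.

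Of the 123 Ghrl-high cells, 109 also passed the Hdc threshold and 14 did not. The reading of the groups as ghrelin cells and histamine cells goes against these data, and the groups are called Ghrl-high and Ghrl-low for that reason. The non-endocrine clusters, which should lack both genes, held 3.82 to 77.2 CPM of Ghrl and 0 to 2.00 CPM of Hdc, and none of their cells passed either threshold. That background was far under the levels of both groups.

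The share of Ghrl had no gap at the threshold. In the Ghrl-high group 23 cells lay between 1% and 2% Ghrl, and in the Ghrl-low group 16 cells lay between 0.5% and 1%, with 4 more in neither group. The cells just inside had 1.01%, 1.04% and 1.09% Ghrl and those just outside had 0.971%, 0.952% and 0.911%. For Hdc the cells just inside had 0.111%, 0.111% and 0.118%, and those just outside had 0.0927%, 0.0921% and 0.0912%. The median cell held 4.104% Ghrl in the Ghrl-high group, with a highest value of 30.4%, and 0.161% in the Ghrl-low group, where 6 cells had no Ghrl UMI.

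**Figure D1:**
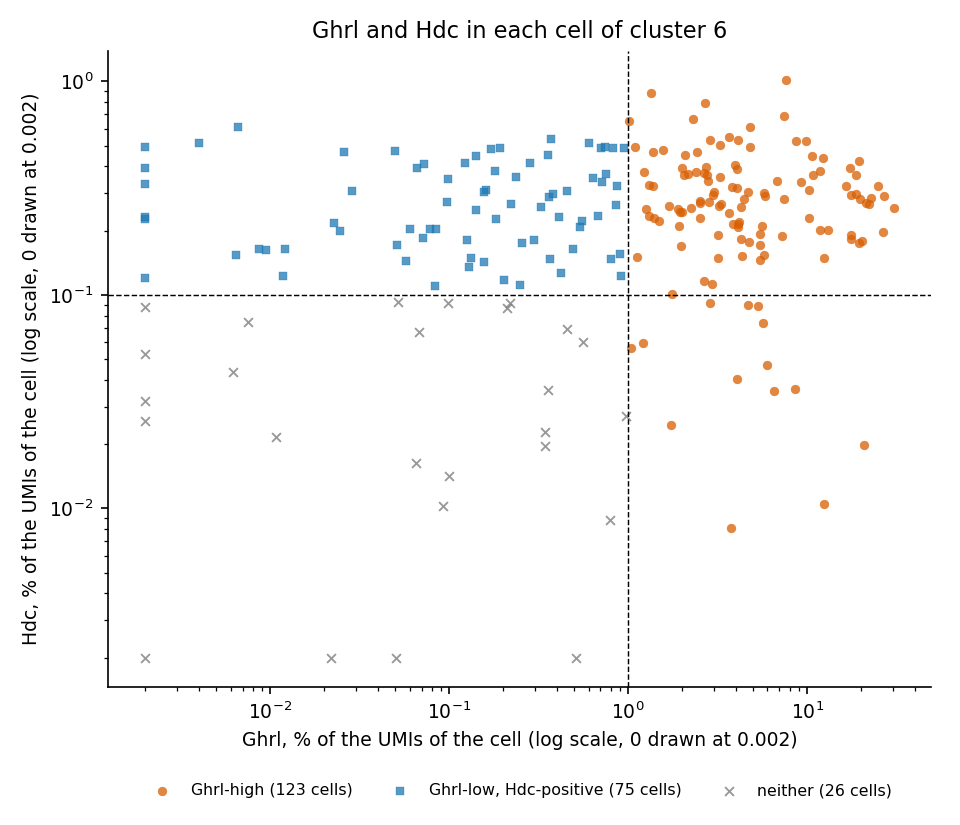
Each point is 1 of the 224 cells of cluster 6, placed by the percentage of its UMIs that were Ghrl (horizontal, log scale) and Hdc (vertical, log scale), with cells at 0 drawn at 0.002. Dashed lines mark the thresholds of 1% Ghrl and 0.1% Hdc, and most of the 123 Ghrl-high cells sit above the Hdc line, at the height of the 75 Ghrl-low cells.

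The Ghrl-high group held 32, 15, 32 and 44 cells in GFP+ 1, GFP+ 2, Epcam+ 1 and Epcam+ 2, and the Ghrl-low group held 18, 10, 27 and 20. Ghrl-high cells were 61.5% (95% Wilson interval 48.0 to 73.5) and 57.7% (38.9 to 74.5) of the cluster in the GFP+ libraries, against 51.6% (39.4 to 63.6) and 52.4% (41.8 to 62.7) in the Epcam+ libraries. The GFP+ mean was 59.6% ± 2.72 and the Epcam+ mean 52.0% ± 0.543 (SD, n = 2 each), a difference of 7.62 points. The exact permutation test gave p = 0.333, the smallest that 2 against 2 libraries allow, so the share of Ghrl-high cells could not be shown to differ between the sorts. These intervals cover counting error only.

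Ghrl-high cells were deeper. Their median UMIs per cell were 34262.5, 27113, 23499.5 and 18149.5, against 21049.5, 19431, 15687 and 17352.5 in Ghrl-low cells, higher in 4 of 4 libraries (exact sign-flip permutation test, two-sided p = 0.125, the smallest possible). The median mitochondrial share was 8.41%, 8.23%, 7.21% and 8.26% in Ghrl-high cells, against 9.41%, 8.99%, 8.02% and 8.93% in Ghrl-low cells, lower in 4 of 4 libraries with the same p of 0.125. Summed UMIs per library ran from 454326 to 1178781 in the Ghrl-high group and from 213263 to 505729 in the Ghrl-low group. No cell barcode of cluster 6 was shared between libraries, and a doublet caller marked 3 Ghrl-high cells and 0 Ghrl-low cells.

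The comparison asked which other genes went with a high share of ghrelin RNA. UMIs were summed per library and group, and the groups were compared with edgeR's quasi-likelihood test with library as a block. Of 6366 genes tested, 70 rose (1.10%) and 28 fell (0.440%) in Ghrl-high cells at an adjusted p under 0.05, together 1.54%. Of the 98, 92 had the same direction in 4 of 4 libraries, where 10.9% of all genes tested were higher and 8.95% lower in 4 of 4. The 98 were called from the same 4 libraries, so a shared direction was partly built into that choice. Without the TMM factors the median difference of all genes was -0.18 on the log2 scale in place of -0.01, and 45 genes rose and 157 fell, so rises were 22.3% of the calls in place of 71.4%. DESeq2 called 13 rises and 1 fall, as many as edgeR without the library block, and 12 of the 49 calls described held in DESeq2, among them those of Pak3, Ctsl, Cidea, Ttyh1, Ahsg, Ccnd2, Vgf, Pcsk1, Ptprn, Resp18 and Nnat. With every cell thinned to 11356 UMIs and 23 shallower cells left out, 32 genes rose and 9 fell, and 24 of the 49 held. Values per library below are given in the order GFP+ 1, GFP+ 2, Epcam+ 1, Epcam+ 2. Differences are log2, Ghrl-high minus Ghrl-low, ± an SE from the edgeR fit. This SE is the size of the difference divided by the square root of the test's F value. It is not the spread of the 4 libraries.

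Of the lists examined, that of prohormone processing and granule proteins held the most calls. Of 17 members tested, 8 rose and none fell, with a median difference of 0.36 against -0.01 over all genes tested. For this and each later list of the same fit, the counts are to be read beside the 1.10% of all genes tested that rose and the 0.440% that fell. Members above or below 0 are to be read beside that median of -0.01. Chromogranin A and B (Chga, Chgb), the convertase Pcsk1, the convertase chaperone Scg5, carboxypeptidase E (Cpe), the granule peptide precursor Vgf, the granule membrane protein Ptprn and the endocrine protein Resp18 made up the 8.

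Chga (chr12:102554969-102565028, plus strand), the most abundant of them, had 45979, 41279, 50115 and 52659 CPM in Ghrl-high cells and 33118, 35991, 39894 and 41431 CPM in Ghrl-low cells. The groups overlapped slightly, GFP+ 2 being the lowest Ghrl-high library and just under Epcam+ 2 of the Ghrl-low group, while every library was higher within itself (0.34 ± 0.05, adjusted p = 0.000495). Chgb had 5197, 5571, 7472 and 6201 CPM against 3179, 5111, 5369.7 and 4817 CPM, with overlap (0.42 ± 0.08, adjusted p = 0.00719). Resp18 had 1919.7, 1562, 1742 and 1785 CPM against 1043, 1067, 803 and 1098 CPM. These groups did not overlap, and the difference was 0.82 ± 0.09 (adjusted p = 2.37e-05).

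Pcsk1 (chr13:75089826-75134861, plus strand), which makes the first cuts in many prohormones, had 1019, 815, 1289.5 and 1157 CPM in Ghrl-high cells and 485, 622, 821 and 691 CPM in Ghrl-low cells. Its groups overlapped only between GFP+ 2 of the Ghrl-high group and Epcam+ 1 of the Ghrl-low group (0.72 ± 0.10, adjusted p = 0.000344). Cpe, which trims the basic residues left by the convertases, had 917, 1124, 873 and 794 CPM against 576, 510.1, 654 and 626 CPM, without overlap (0.62 ± 0.11, adjusted p = 0.00325). Vgf had 278, 457, 418 and 384 CPM against 138, 239, 194 and 222 CPM, also without overlap (0.96 ± 0.10, adjusted p = 1.62e-05). Ptprn had 283, 302, 375 and 273 CPM against 143, 183, 155 and 182 CPM, again apart (0.91 ± 0.12, adjusted p = 0.000328). Scg5 had 1229, 1201, 1305 and 1361 CPM against 898, 782, 1114 and 1201 CPM, touching at the edge (0.36 ± 0.09, adjusted p = 0.0442).

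Chga, Cpe, Pcsk1, Ptprn, Resp18 and Vgf were called in each of the 4 fits that left out 1 library. Chgb lost its call without GFP+ 1 (0.32, adjusted p = 0.0654), without Epcam+ 1 (0.40, adjusted p = 0.0656) or without Epcam+ 2 (0.44, adjusted p = 0.0837), and Scg5 lost it without any one of the 4 (0.29 to 0.43). Without TMM factors the list kept 5 calls, losing Chga (0.17, adjusted p = 0.0607), Chgb (0.26) and Scg5 (0.20).

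**Figure D2:**
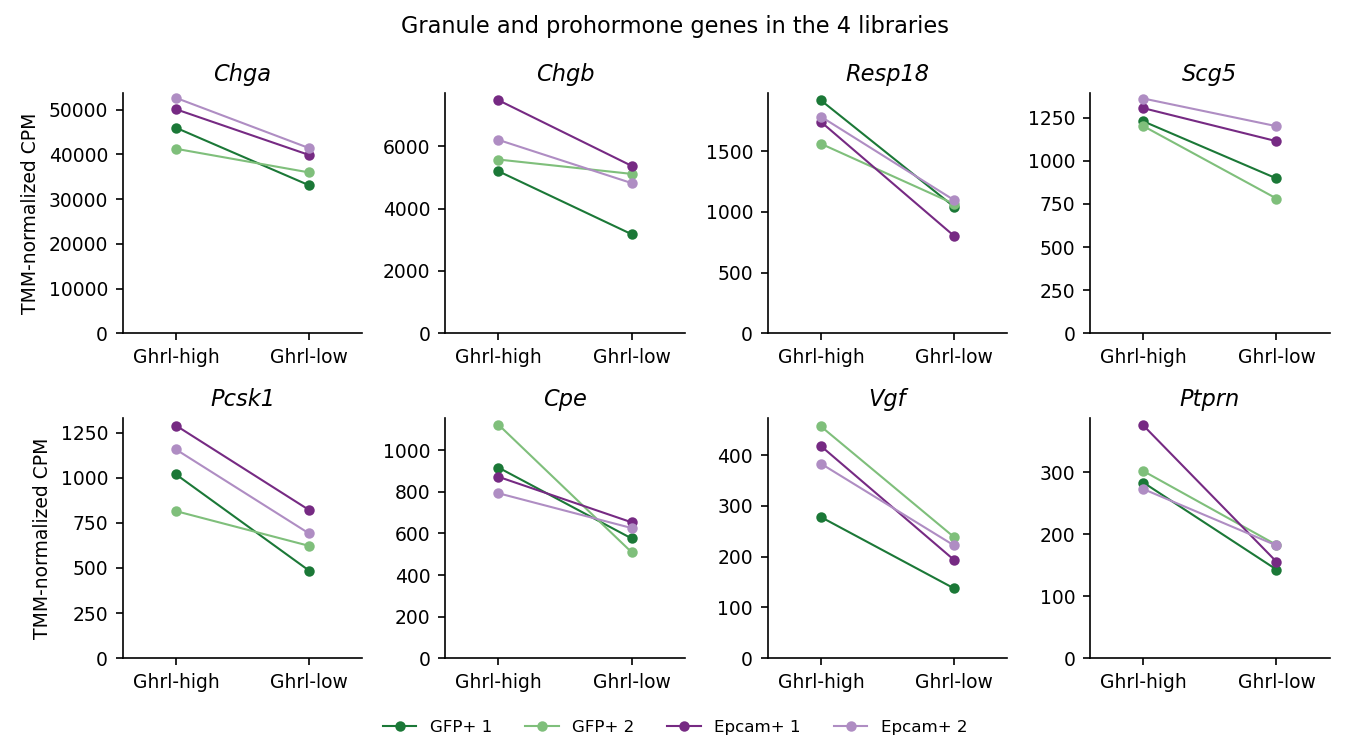
TMM-normalized CPM of the 8 granule and prohormone genes that passed the test, in Ghrl-high (left) and Ghrl-low (right) cells, with a line for each of the 4 libraries and axes from 0. Every line is higher on the Ghrl-high side, by the most on the log2 scale for Vgf (0.96) and by the least for Chga (0.34).

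The promoters of the granule genes were searched for the core of the cyclic AMP response element, the site of CREB-family factors, TGACGT, on both strands in the 250 bases before each start (RefSeq, GRCm38.p6). It was present in 6.47% of 32851 such windows. Of the 8 granule genes that rose, 6 had an entry and 4 held it, Chga, Chgb, Pcsk1 and Scg5. By window, 4 of 7 held it. The window of Chgb lay wholly inside the annotated gene, so its match is not before the annotated start. Of the 6 list genes that fell, 5 had an entry and 1 held it. The windows of the gene with the most RNA and of the convertase are shown, ended before the annotated start of the gene, with matches on either strand in capitals. Where the reverse match overlaps the forward one the capitals run to 8 letters. A match is a description and not a site of binding.
Chga, chr12:102554691-102554940, plus strand: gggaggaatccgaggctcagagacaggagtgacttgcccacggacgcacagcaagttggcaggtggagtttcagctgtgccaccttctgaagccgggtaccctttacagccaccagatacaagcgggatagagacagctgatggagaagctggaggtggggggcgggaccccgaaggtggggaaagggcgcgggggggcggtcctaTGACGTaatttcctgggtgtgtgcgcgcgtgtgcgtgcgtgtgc
Pcsk1, chr13:75089607-75089825, plus strand: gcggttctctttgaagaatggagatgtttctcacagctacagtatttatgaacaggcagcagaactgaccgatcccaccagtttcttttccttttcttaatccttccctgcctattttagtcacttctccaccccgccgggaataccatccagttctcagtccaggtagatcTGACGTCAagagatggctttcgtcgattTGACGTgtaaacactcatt

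The acyltransferase of ghrelin, the vesicle transporter of histamine and the gastrin receptor did not pass the test. Mboat4, the acyltransferase of ghrelin, had 204, 196, 205 and 191 CPM in Ghrl-high cells and 119, 140.4, 165 and 163 CPM in Ghrl-low cells. The groups did not overlap, but the difference of 0.44 ± 0.13 did not pass (adjusted p = 0.108). Slc18a2, the vesicle transporter of histamine, had 3256, 3263, 3322 and 3877 CPM against 3257, 3379, 2855 and 3729.9 CPM, a difference of 0.06 ± 0.07 (adjusted p = 0.83), whose sign turned without TMM factors (-0.11). Cckbr, the gastrin receptor of ECL cells, had 139, 160.2, 139.9 and 134 CPM against 143, 103, 119 and 106 CPM (0.25 ± 0.14, adjusted p = 0.54). Textbooks place the acyltransferase in ghrelin cells, and the amine transporter and the gastrin receptor in ECL cells. Transcripts of each were present in both groups.

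Rbp4, which carries retinol in plasma, had 224, 233, 225 and 168 CPM against 161, 154, 165 and 133 CPM (0.45 ± 0.12, adjusted p = 0.0579). Nucb2, the precursor of nesfatin, differed by 0.25 ± 0.16 (adjusted p = 0.591) and the fatty acid receptor Ffar4 by 0.49 ± 0.23 (adjusted p = 0.423). Sst, the somatostatin gene of D cells, had 3151, 6723, 49.0 and 16.4 CPM in Ghrl-high cells and 8822, 0, 8019 and 10.8 CPM in Ghrl-low cells. That spread was the work of 2 Ghrl-high and 2 Ghrl-low cells in which Sst was at least 1% of UMIs (-1.14 ± 1.49, adjusted p = 0.832). Gast, the gastrin gene, was concentrated in 1 Ghrl-high cell of each GFP+ library. The receptor Adcyap1r1 and the transcription factor Lmx1a had no UMI in either group, where a count of 0 allows up to 3 UMIs, and Adrb1, Gal, Tph1, Nkx6-3, Pax6 and Neurod1 were too low to test.

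Of 9 tested genes of amine synthesis, transport and breakdown, 2 rose and none fell, against 1.10% and 0.440% of all genes tested. Slc7a8, an amino acid transporter that takes up histidine among others, had 92.1, 96.6, 136 and 132 CPM in Ghrl-high cells and 36.3, 46.8, 74.7 and 81.3 CPM in Ghrl-low cells. The groups did not overlap (0.93 ± 0.17, adjusted p = 0.00416). Qdpr, which regenerates the biopterin cofactor of amine synthesis, had 904, 846, 1154 and 961 CPM against 659, 468, 983 and 808 CPM (0.43 ± 0.10, adjusted p = 0.0301). Its call was lost without GFP+ 1 (0.42), GFP+ 2 (0.31) or Epcam+ 2 (0.49). Ddc, the decarboxylase of serotonin and dopamine synthesis, differed by -0.17 ± 0.13 (adjusted p = 0.666).

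The largest differences outside the lists were in genes with few molecules per cell. Dlk1 (chr12:109452823-109463336, plus strand), a membrane ligand of the Delta family, had 29.7, 33.0, 133 and 124 CPM in Ghrl-high cells and 5.19, 0, 18.2 and 0 CPM in Ghrl-low cells. The groups did not overlap (3.54 ± 0.39, adjusted p = 1.64e-05), and the Ghrl-low sums held 11 UMIs in all. Of the 235 Ghrl-high UMIs 30.2% came from 1 cell, and within a library the highest cell held 43.9% to 83.9%. Pak3, a kinase of cytoskeletal signalling, was spread more evenly, with 51.8, 115, 125 and 114 CPM against 0, 0, 16.1 and 21.7 CPM. Its groups did not overlap (3.21 ± 0.33, adjusted p = 1.5e-05), and its highest cell held 7.50% of 280 UMIs. Within the Ghrl-high sums the highest cell held 24.1%, 42.9%, 23.0% and 20% of the Pak3 UMIs. The median of Pak3 over cells was 0 in both groups.

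Spp1 (chr5:104435118-104441050, plus strand), encoding the secreted protein osteopontin, had 399, 417, 419.7 and 482 CPM in Ghrl-high cells and 36.3, 4.68, 186 and 236 CPM in Ghrl-low cells, without overlap (1.87 ± 0.29, adjusted p = 0.0011). Most cells of both groups held no Spp1, since the median over cells was 0 in each. The highest cell held 40.1%, 87.6%, 21.6% and 40.6% of the Spp1 UMIs of the 4 Ghrl-high sums. With each gene's highest cell in a sum held to the share of the second-highest cell, Spp1 differed by 2.16 and Pak3 by 3.36, both past the threshold, while Dlk1, Nnat and Etv1 fell under the filter on low counts and were not tested. Dlk1 lies beside the imprinted noncoding genes Meg3 and Rian, which were looked at after values had been seen, and both rose (0.63 ± 0.10, adjusted p = 0.000975, and 0.65 ± 0.13, adjusted p = 0.00836). Meg3 had 3129, 3418, 3444 and 3197 CPM against 1965, 2677, 1643 and 2377 CPM, without overlap.

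Ctsl, the lysosomal protease cathepsin L, had 1332, 1168, 1888 and 1214 CPM in Ghrl-high cells and 275, 566, 670.0 and 664 CPM in Ghrl-low cells. The lowest Ghrl-high library was well above the highest Ghrl-low one (1.41 ± 0.15, adjusted p = 1.5e-05). Ahsg, the secreted glycoprotein fetuin-A, had 987, 756, 1437 and 781 CPM against 433, 431, 517 and 323 CPM, likewise apart, with the smallest adjusted p of the genes described (1.21 ± 0.10, adjusted p = 1.49e-06). Edem2, which acts in the disposal of misfolded glycoproteins, had 105, 94.2, 143 and 82.0 CPM against 46.7, 32.8, 66.6 and 46.1 CPM, without overlap (1.11 ± 0.18, adjusted p = 0.00142).

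Cidea, a lipid droplet protein, had 127, 163, 136 and 112 CPM against 41.5, 23.4, 68.6 and 51.5 CPM (1.41 ± 0.20, adjusted p = 0.000495). Ttyh1, a membrane protein of the tweety family, had 149.7, 134, 175 and 125 CPM against 18.2, 37.4, 90.8 and 75.9 CPM (1.36 ± 0.23, adjusted p = 0.00251). Neither Cidea nor Ttyh1 overlapped. The cyclin Ccnd2, which drives cells through G1, had 474, 417, 447 and 334 CPM against 195, 211, 262 and 152 CPM, also without overlap (1.03 ± 0.11, adjusted p = 1.5e-05).

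Tc2n differed by 1.51 ± 0.29 (adjusted p = 0.00659), the calcium-binding protein S100a11 by 1.15 ± 0.23 (adjusted p = 0.00922) and the neural adhesion molecule Negr1 by 1.09 ± 0.22 (adjusted p = 0.0116). Of the 15 largest rises 10 were called in each of the 4 fits that left out 1 library, and Tc2n, S100a11, Negr1, Gkn1 and Gkn2 were not. Tc2n and S100a11 lost their calls without GFP+ 1 (1.36 and 0.87) and without Epcam+ 2 (1.27 and 1.28), and Negr1 without GFP+ 2 (0.99), Epcam+ 1 (0.89) or Epcam+ 2 (1.05).

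**Figure D3:**
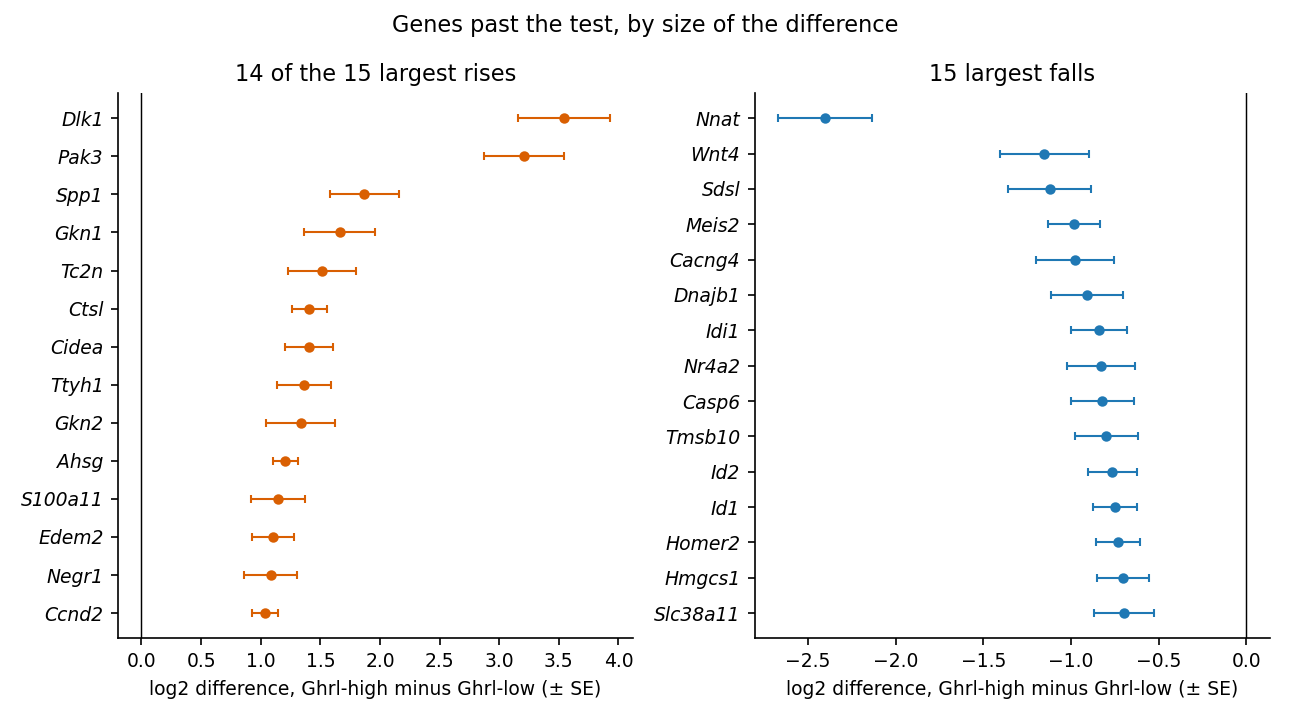
The log2 difference, Ghrl-high minus Ghrl-low, with its SE from the edgeR fit, for 14 of the 15 largest rises (left panel) and the 15 largest falls (right panel) among genes past the test with the same direction in every library. Rises reach 3.54 for Dlk1 and falls reach -2.40 for Nnat.

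Gkn1 and Gkn2, secreted proteins of pit cells, also passed the test. Gkn1 had 60.4, 18.8, 477 and 107 CPM in Ghrl-high cells and 28.6, 18.7, 68.6 and 84.0 CPM in Ghrl-low cells, and Gkn2 had 27.8, 14.1, 237 and 93.4 CPM against 20.8, 14.0, 44.4 and 70.5 CPM. The groups overlapped and Epcam+ 1 of the Ghrl-high group stood far above the rest (1.66 ± 0.30, adjusted p = 0.00416, and 1.33 ± 0.29, adjusted p = 0.0198). In that library 1 cell held 53.2% of the Gkn1 UMIs, and the median over cells was 44.2 CPM in the Ghrl-high group and 53.5 CPM in the Ghrl-low group. Without Epcam+ 1 the differences were 0.56 (adjusted p = 0.436) and 0.38 (adjusted p = 0.658). Of the 6 pit markers 4 were tested and 2 passed. Their summed level was 155, 79.2, 2266 and 356 CPM in Ghrl-high cells, against 181, 113, 310.4 and 353 CPM in Ghrl-low cells, so it was higher in Epcam+ 1, about level in Epcam+ 2 and lower in both GFP+ libraries.

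Pgc, the pepsinogen of chief cells, had 2653, 768, 8317 and 4542 CPM against 1716, 796, 2928 and 2640.2 CPM (0.75 ± 0.14, adjusted p = 0.00751). A single cell held 89.0% of it in the Ghrl-high sum of Epcam+ 1 and 84.1% in that of Epcam+ 2. Without the 10 Ghrl-high and 3 Ghrl-low cells in which a marker of another cell type reached 1% of UMIs, Pgc differed by -0.09 (adjusted p = 0.788) and Gkn1 by 0.65 (adjusted p = 0.151). Of the 49 calls described, 40 held without those cells. Without Epcam+ 1 Pgc differed by 0.49 (adjusted p = 0.088), and without Epcam+ 2 by 0.72 (adjusted p = 0.151).

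Clps, the colipase gene, was the most abundant marker of the chief cell list in both groups, with 24329, 21237, 28645 and 42642 CPM in Ghrl-high cells and 18101, 15459, 33319.9 and 27159 CPM in Ghrl-low cells (0.33 ± 0.09, adjusted p = 0.0676). It stood at 12.1, 12.2, 19.6 and 8.74 UMIs per UMI of Pla2g1b, another chief cell gene, in Ghrl-high cells and at 9.65, 7.998, 8.98 and 10.7 in Ghrl-low cells, against 1.37 to 1.43 in cluster 1, where Clps was most abundant. The ratio of cluster 6 was therefore not that of cluster 1 in either group. Without Epcam+ 1 Clps passed (0.52, adjusted p = 0.000345). Histamine is also made by mast cells, whose list summed to 4.40 to 10.1 CPM in Ghrl-high and 2.71 to 13.8 CPM in Ghrl-low cells. Only 4 of its 10 genes were among the deposited genes, and Mcpt2, Mcpt4 and Ms4a2 had no UMI. The 3 squamous markers were at 0. Of the 3 red cell markers only Hba-a1 was among the deposited genes, at 0. Of the 3 endothelial markers only Pecam1 was, and its 0 was fixed in advance, since the authors had removed cells with Pecam1 counts.

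Fewer genes fell, and most by less. Nnat, the imprinted membrane protein neuronatin of endocrine and neural cells, had 25.9, 25.9, 21.6 and 10.1 CPM in Ghrl-high cells and 236, 112, 50.4 and 38.0 CPM in Ghrl-low cells. The groups did not overlap (-2.40 ± 0.27, adjusted p = 2.16e-05), but 1 cell held 37.0% of its 154 Ghrl-low UMIs. Within the Ghrl-low sums the highest cell held 62.6%, 100%, 48% and 42.9% of the Nnat UMIs, and the median over cells was 0. Meis2, a homeobox transcription factor, had 106, 63.6, 102 and 63.1 CPM against 265, 122, 189.7 and 92.2 CPM, lower in 4 of 4 libraries with overlap between them (-0.98 ± 0.15, adjusted p = 0.000912). The signalling ligand Wnt4 had 38.4, 11.8, 24.5 and 16.4 CPM against 72.7, 37.4, 48.4 and 48.8 CPM (-1.15 ± 0.25, adjusted p = 0.0205).

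Sdsl, a serine dehydratase-like enzyme, differed by -1.12 ± 0.24 (adjusted p = 0.0147), Cacng4 of the calcium channel gamma subunit family by -0.98 ± 0.22 (adjusted p = 0.0248), the scaffold Homer2 by -0.73 ± 0.13 (adjusted p = 0.00293), the protease Casp6 by -0.82 ± 0.18 (adjusted p = 0.0205), the actin-binding Tmsb10 by -0.80 ± 0.18 (adjusted p = 0.0227) and the transporter Slc38a11 by -0.70 ± 0.17 (adjusted p = 0.0403). A pair of cholesterol synthesis enzymes fell. Idi1 had 75.8, 94.2, 104 and 49.2 CPM against 93.4, 215, 198 and 97.6 CPM (-0.84 ± 0.16, adjusted p = 0.00611), and Hmgcs1 had 167, 207, 232 and 173 CPM against 199.9, 604, 315 and 268 CPM (-0.70 ± 0.15, adjusted p = 0.0155). Of the 15 largest falls only Nnat and Meis2 were called in each fit that left out 1 library, and 11, 6, 7 and 3 of them were called without GFP+ 1, GFP+ 2, Epcam+ 1 and Epcam+ 2, though all 15 stayed negative (-2.73 to -0.44).

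Among 11 tested Id genes, inhibitors of cyclin-dependent kinases, cyclins D and Notch genes, 2 rose and 2 fell. Over all genes tested, 1.10% rose and 0.440% fell. Id1 and Id2, which block basic helix-loop-helix factors, fell. Id1 had 83.5, 101, 175 and 134 CPM in Ghrl-high cells and 125, 201, 268 and 247 CPM in Ghrl-low cells, and Id2 had 82.5, 160.2, 131 and 144 CPM against 135, 346, 159 and 279 CPM. Each was lower in 4 of 4 libraries, with overlap between libraries (-0.75 ± 0.12, adjusted p = 0.00238, and -0.76 ± 0.14, adjusted p = 0.00416). Without Epcam+ 2 neither passed (-0.70, adjusted p = 0.0613, and -0.69, adjusted p = 0.109). The 2 that rose were Ccnd2 and the related cyclin gene Ccnd1, which differed by 0.52 ± 0.13 (adjusted p = 0.0446), a call lost without any one of the 4 libraries (0.44 to 0.65).

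Immediate-early genes, which respond within minutes to stimulation and to tissue dissociation, were below 0 in 15 of 17 tested, with a median of -0.22, and 2 fell. Without GFP+ 2 the list had 10 of 17 below 0 and a median of -0.02, and without Epcam+ 1 it had 12 of 17 and -0.09, with no fall in either. Nr4a2, an orphan nuclear receptor, had 48.0, 25.9, 114 and 46.7 CPM against 54.5, 98.3, 189.7 and 97.6 CPM (-0.83 ± 0.19, adjusted p = 0.0297), and the antiproliferative Btg2 had 1402, 1536, 1650.1 and 2145 CPM against 1376, 2724, 2615 and 2735 CPM (-0.45 ± 0.11, adjusted p = 0.0297). Btg2 was not lower in GFP+ 1. Both lost their calls without GFP+ 2 (-0.69 and -0.33), Epcam+ 1 (-0.90 and -0.38) or Epcam+ 2 (-0.76 and -0.49). Of 14 tested cytosolic heat shock genes 1 fell, the cochaperone Dnajb1, with 167, 58.9, 104 and 94.6 CPM against 213, 304, 131 and 217 CPM (-0.91 ± 0.21, adjusted p = 0.0254), and its call was lost without GFP+ 2 (-0.61) or Epcam+ 2 (-0.82). With every cell thinned to 11356 UMIs, Id1, Id2 and Nr4a2 passed (-0.74, -0.93 and -1.19), and Btg2 (-0.46, adjusted p = 0.245) and Dnajb1 (-0.79, adjusted p = 0.128) did not. The mitochondrial share of the cells also moved with the groups, and its part in these differences was not tested.

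Of 17 tested endocrine transcription factors 1 passed, against 1.54% of all genes tested. Etv1 (chr12:38779380-38870484, plus strand), an ETS factor, had 62.4, 44.8, 54.8 and 15.1 CPM in Ghrl-high cells and 2.60, 9.36, 22.2 and 5.42 CPM in Ghrl-low cells, overlapping only at Epcam+ 2 of the Ghrl-high group (2.07 ± 0.39, adjusted p = 0.00572). The call was lost without GFP+ 1 (1.51, adjusted p = 0.0942), and the Ghrl-low sums held 16 Etv1 UMIs. Isl1 differed by -0.53 ± 0.40 (adjusted p = 0.665), and the median of the list was -0.16.

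Of 23 tested genes of endoplasmic reticulum folding 20 were positive, with a median of 0.13 (0.05 without GFP+ 1), but only the chaperone Dnajb9 rose (0.53 ± 0.12, adjusted p = 0.0205). Without TMM factors 9 were positive and the median was -0.04, and Dnajb9 lost its call (0.36), as it did without GFP+ 1 (0.58), Epcam+ 1 (0.57) or Epcam+ 2 (0.41). Slc3a2, the heavy chain that Slc7a8 needs at the membrane, was the 1 of 11 integrated stress response genes to rise, with 179, 144, 216 and 192 CPM against 98.6, 93.6, 161 and 103 CPM (0.68 ± 0.13, adjusted p = 0.00812). It lost its call without GFP+ 1 (0.62) or Epcam+ 2 (0.61).

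Of 7 tested immune and antigen presentation genes, all positive with a median of 0.32 (0.18 without GFP+ 2), B2m, the light chain of class I molecules, rose by 0.73 ± 0.16 (adjusted p = 0.0205) and the interferon-induced Ifitm3 by 0.52 ± 0.13 (adjusted p = 0.0403). B2m was lost without GFP+ 1 (0.68), GFP+ 2 (0.70) or Epcam+ 1 (0.54) and Ifitm3 without any one of the 4 (0.45 to 0.57), and neither passed without TMM factors (0.56 and 0.35). Among 21 tested genes of regulated exocytosis the small GTPase Rab3c fell (-0.33 ± 0.08, adjusted p = 0.0485), with 1058, 1060.1, 913 and 1306 CPM against 1293, 1427, 1243 and 1472 CPM, a call lost without any one library (-0.39 to -0.29).

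None of the 3 gut hormones, 11 receptors, 19 ion channel genes, 15 genes of fatty acid handling, 14 of glycolysis or 13 mitochondrially encoded genes tested passed edgeR's test. Their medians were 0.25, 0.21, -0.13, -0.05, 0.02 and 0.12. The 13 mitochondrially encoded genes were all positive after TMM and 11 of them negative without it, beside a mitochondrial share per cell that was lower in Ghrl-high cells.

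The 14 Ghrl-high cells under the Hdc threshold had other levels than the 109 above it. Their levels are given as CPM of UMIs other than Ghrl, pooled over libraries and with no test. Spp1 stood at 5.40 CPM in the 14 cells, against 440 CPM in the 109 and 132 CPM in Ghrl-low cells. Ctsl stood at 378 CPM, against 1422 and 549 CPM, Ahsg at 119 CPM, against 1024 and 433 CPM, and Pcsk1 at 265 CPM, against 1103 and 670.2 CPM. The 14 cells were thus lower in these genes than the 109 and than Ghrl-low cells, with a median of 4.96% Ghrl against 4.07% and 0.161%. The low levels were not particular to them. The 26 cells in neither group, also under the Hdc threshold, had 17.8, 336, 50.9 and 249 CPM of Spp1, Ctsl, Ahsg and Pcsk1. Some other genes that rose in the test stood above Ghrl-low cells in the 14. Edem2 had 97.3 CPM in the 14, against 103 CPM in the 109 and 51.2 CPM in Ghrl-low cells. Ccnd2 had 232 CPM, against 419 and 209 CPM, and Ifitm3 184 CPM, against 175 and 126 CPM. The genes on either side were not counted. In the 14 cells Slc18a2 stood at 2977 CPM, against 3343 CPM in the 109 and 3254 CPM in Ghrl-low cells. The 14 were also shallower, with a median of 13148 UMIs against 25804 in the 109 and 17589 in Ghrl-low cells. The 26 had a median of 13180 UMIs.

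When the 109 cells past both thresholds were left out, only Epcam+ 1 and Epcam+ 2 kept 5 or more Ghrl-high cells, 6 in each. Of 5491 genes tested in that fit, 28 rose and 34 fell, with a median difference of -0.02. The granule list then had no rise and 1 fall, with a median of -0.54, and Spp1 (-4.83), Ctsl (-1.05), Ahsg (-1.56), Pcsk1 (-1.64) and Vgf (-1.45) had differences below 0.

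Within the cells that passed the Hdc threshold, Ghrl could be followed in 4 steps, under 0.1% (29 cells), 0.1 to 1% (46 cells), 1 to 5% (67 cells) and at least 5% (42 cells). Means ± SD are over the 3, 4, 4 and 3 libraries with at least 5 cells in the step, as CPM of UMIs other than Ghrl and as a description with no test. GFP+ 2, with 2 and 3 cells there, is missing from the first and last steps, so the steps do not cover the same libraries. The genes followed had passed the test that divided cells at 1% Ghrl. A difference between the steps under 1% and those over it was therefore built into that choice. Pcsk1 had 423 ± 87.1, 799 ± 266, 1026 ± 236 and 1309 ± 132 CPM in the 4 steps, and Ctsl had 364 ± 177, 621 ± 234, 1010.5 ± 317 and 2254 ± 527 CPM. Both climbed at each step. Resp18 was level over the lower steps and higher in the others, with 1019.8 ± 234, 1016 ± 132, 1551 ± 217 and 2152 ± 160.0 CPM. Pak3 had 5.89 ± 10.2, 10.4 ± 13.4, 66.1 ± 43.7 and 178 ± 75.0 CPM.

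Other genes did not follow Ghrl step by step. Spp1 was highest at 1 to 5% Ghrl, with 30.7 ± 38.7, 169 ± 167, 556 ± 166 and 328 ± 361 CPM. Id1 was high only in the cells with the least Ghrl, with 422 ± 225, 117 ± 27.7, 129 ± 49.9 and 115 ± 28.7 CPM. Ifitm3 stood out only in the cells with the most, where it had 258 ± 35.3 CPM. Btg2 had 2865 ± 891, 1795 ± 549.9, 1551 ± 621 and 1260.1 ± 316 CPM. Median UMIs per cell also climbed over the steps, from 15570 through 19132.5 and 23232 to 27017.5, and their part in these levels was not tested.

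**Figure D4:**
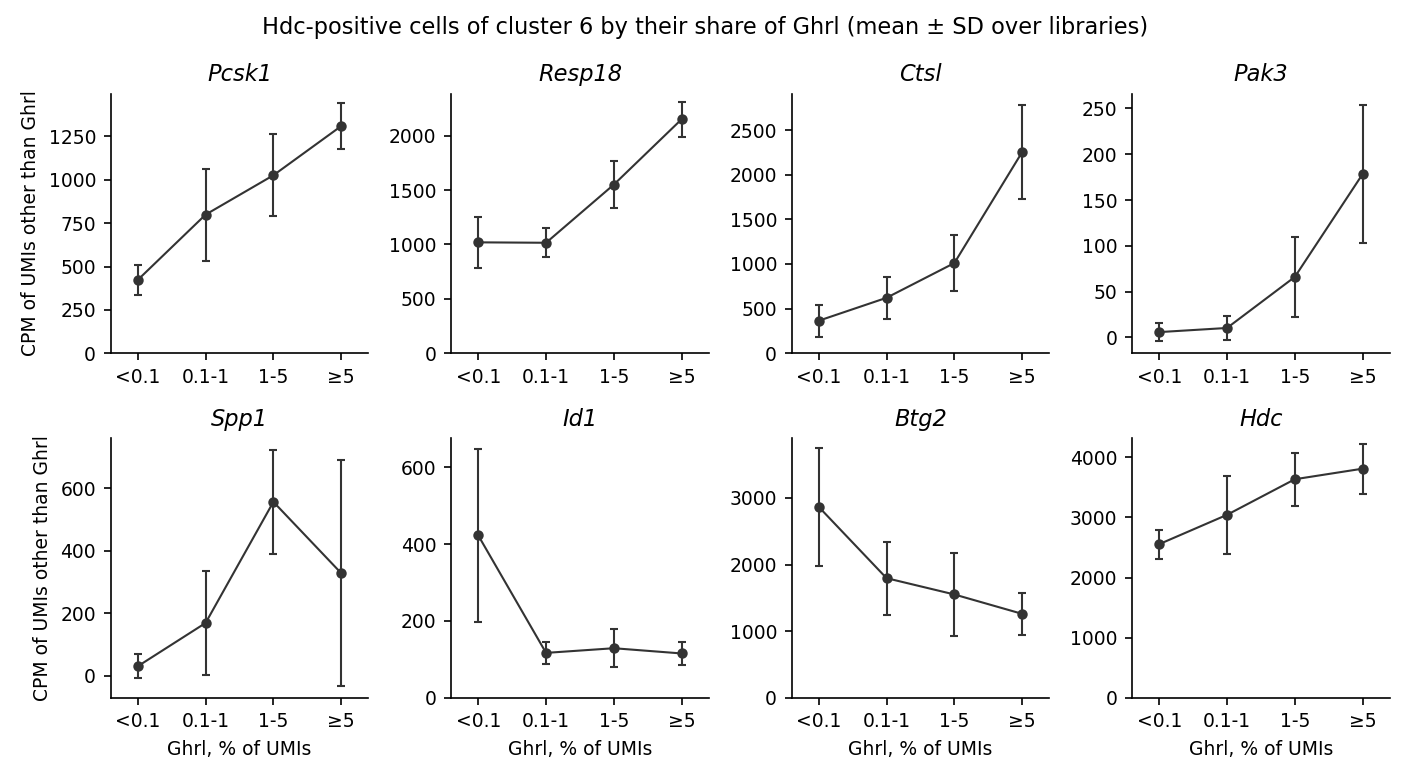
Levels of 8 genes in Hdc-positive cells of cluster 6 in 4 steps of Ghrl (horizontal, percent of UMIs), in CPM of UMIs other than Ghrl (vertical), as means with SD bars over the 3 or 4 libraries with at least 5 cells. Pcsk1, Ctsl and Pak3 are higher at each step, Spp1 is highest at 1 to 5%, Id1 is high only under 0.1%, and Btg2 is lower at each step.

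The difference between Ghrl-high and Ghrl-low cells was then compared between the sorts, by the interaction of group and sort in edgeR. It passed for 2 of 6366 genes (0.0314%). One was Spp1, its difference being larger in GFP+ than in Epcam+ libraries by 2.93 on the log2 scale (adjusted p = 0.00573). Its Ghrl-low levels were lower in GFP+ 1 and GFP+ 2, but 1 cell held 72.8% of the 92 Ghrl-low UMIs of Epcam+ 1 and 54.0% of the 87 of Epcam+ 2. With the highest cell of each sum held to the second highest, Spp1 did not pass (1.88, adjusted p = 0.295). The other was the heat shock gene Hspa1a, seen by this test and outside the rule for named genes. It had 295 and 120.1 CPM in Ghrl-high cells of the GFP+ libraries against 223 and 93.6 CPM in Ghrl-low cells, and 141 and 74.4 CPM in Ghrl-high cells of the Epcam+ libraries against 301 and 239 CPM in Ghrl-low cells. The difference was higher in GFP+ than in Epcam+ libraries by 1.73 (adjusted p = 0.0142), and by 1.36 (adjusted p = 0.0303) with the highest cell held to the second highest.

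**Figure D5:**
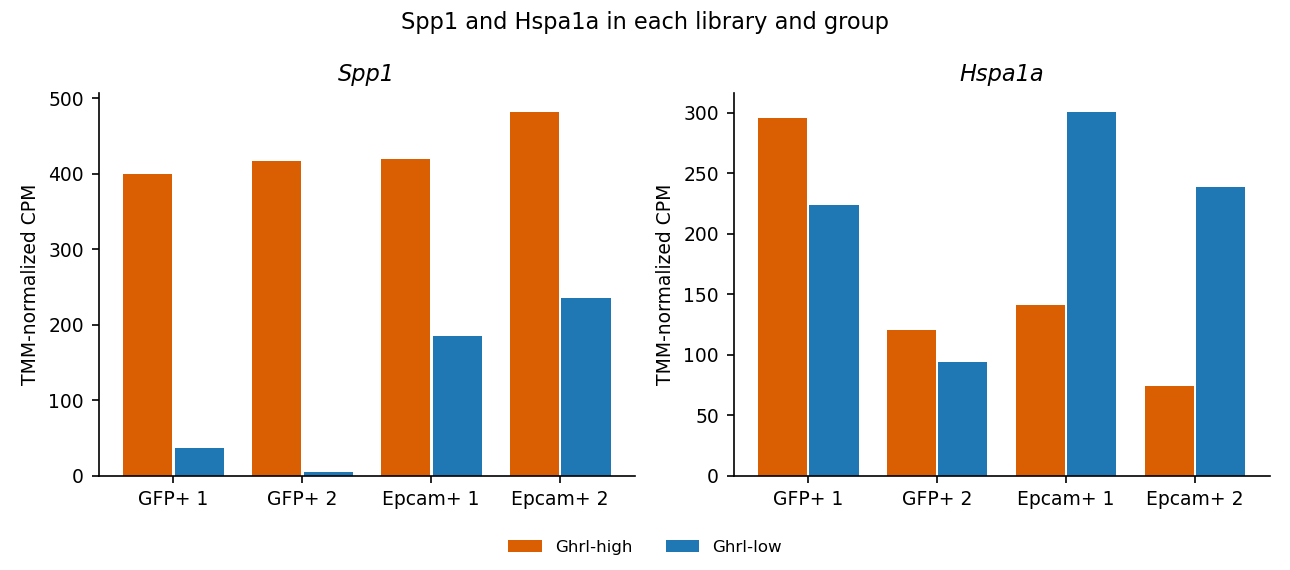
TMM-normalized CPM of Spp1 (left panel) and Hspa1a (right panel) in each library, with Ghrl-high cells left of Ghrl-low cells and axes from 0. Ghrl-low Spp1 is 36.3 and 4.68 CPM in the GFP+ libraries and 186 and 236 CPM in the Epcam+ libraries, where 1 cell held 72.8% and 54.0% of its UMIs, and Hspa1a is higher in Ghrl-high cells of the GFP+ libraries and lower in those of the Epcam+ libraries.

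Ghrl-rich cells were also found outside cluster 6, in cluster 7, where 20 cells had at least 1% Ghrl with a median of 16.9%. Summed over these cells Hdc stood at 421 CPM and Slc18a2 at 483 CPM of UMIs other than Ghrl, against 3597 and 3343 CPM in the 109 Ghrl-high cells of cluster 6 that passed the Hdc threshold. The median cell of the 20 held 0% Hdc, against 0.292% in the 109, so the summed Hdc level is not that of a typical cell of the 20. Isl1 stood at 678 CPM and Sst at 71438 CPM in the 20 cells, against 215 and 44853.5 CPM in the 68 cluster 7 cells with less than 1% Ghrl. Beyond the median of Hdc, the spread of these genes over single cells was not examined. These values cover all libraries pooled and were not tested.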

How the data were processed

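Deposited values were raw UMI counts per gene and cell, made by the authors with Cell Ranger 3.0.2 against mm10 (per the submitters' notes), with a table of clusters. The authors kept cells with 1500 to 8000 genes, at most 15% mitochondrial counts and no Ptprc or Pecam1 counts. Both tables together gave 17712 genes in 4449 cells, and library totals ran from 35571141 to 79455225 UMIs.

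The members and gene lists were chosen with earlier results of these data known. Counts were summed per library and group (at least 5 cells). Genes passing filterByExpr, other than Ghrl and Hdc, were fitted in edgeR 4.0.16 (R 4.3.3, limma 3.58.1) with TMM factors and library as a block, adjusting p-values by Benjamini-Hochberg over 6366 genes. Both groups of a library share 1 capture, and their deviations from the group means correlated at 0.152, 0.0982, 0.191 and 0.159. DESeq2 1.42.0 was an alternative. Doublets were called with Scrublet (scanpy 1.11.5) and kept, 74 in the series. Permutation tests used scipy 1.17.1. The edgeR step was tested on simulated sums with the same dispersion for every gene. These did not model sums dominated by a single cell.

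Named were the 15 largest differences in each direction with an adjusted p under 0.05, at least 50 CPM in the higher group and 1 direction in every library, list members past the test, and genes known for either cell type. A further 4 settings, on cells near the threshold, on Hdc, on other types' markers and on the highest cell, were chosen after seeing the data. Coordinates are from GENCODE vM21 and promoters from RefSeq, with 84 of 85 genes matched. Some genes that the rule names are not reported here.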

Additional observations from a re-analysis of the deposited data

Results flagged for a closer look

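In 2 genes the difference between Ghrl-high and Ghrl-low cells itself differed between the sorts, by the interaction test in edgeR. The difference in GFP+ libraries minus that in Epcam+ libraries was 2.93 on the log2 scale for Spp1 (adjusted p = 0.00573) and 1.73 for Hspa1a (adjusted p = 0.0142). With the highest cell of each sum held to the second highest, Spp1 did not pass (1.88, adjusted p = 0.295) and Hspa1a did (1.36, adjusted p = 0.0303). Of 6366 genes, 324 had an unadjusted p under 0.05 in this test, about as many as that threshold gives when no gene differs.

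In 5 of 96 groups of 4 libraries, 1 library lay far from the other 3 by Dixon's criterion, where chance gives about 1 in 20 groups. Among Ghrl-high cells these were Pak3 in GFP+ 1 (51.8 CPM), Tc2n in Epcam+ 2 (69.4 CPM) and Homer2 in Epcam+ 1 (95.2 CPM). Among Ghrl-low cells they were Slc3a2 in Epcam+ 1 (161 CPM) and Btg2 in GFP+ 1 (1376 CPM).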

How the results depend on the processing

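The 70 rises and 28 falls moved by over 1.5 times in some settings. They were 45 and 157 without TMM factors, 13 and 1 with DESeq2, 157 and 50 with no filter on low counts, 32 and 9 with cells thinned to 11356 UMIs, and 13 and 1 with no replicate block. With the replicate number and sort as the replicate block there were 53 rises and 17 falls. Leaving out 1 library gave 32 to 54 rises and 4 to 20 falls. Falls were 44 with the Ghrl threshold at 0.5%, 13 with Hdc at 0.2%, 48 without cells near the Ghrl threshold and 45 without Ghrl-high cells under the Hdc threshold. Without cells past both thresholds there were 28 rises and 34 falls. The interaction passed for 38 genes with no filter. Of the 49 calls described, 12 held with DESeq2, 41 without TMM factors, 24 with thinned cells, 33 in Epcam+ libraries alone and 31 in GFP+ libraries alone. The causes were not tested. The summed groups of GFP+ 2, with 15 and 10 cells, are the smallest and limit the depth most.

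Without cells past both thresholds the sign turned for Spp1 (-4.83), Gkn1 (-0.67), Ctsl (-1.05), Cidea (-2.10), Ttyh1 (-1.99), Ahsg (-1.56), Negr1 (-2.31), Wnt4 (1.17), Sdsl (0.91), Cacng4 (0.29), Dnajb1 (0.55), Casp6 (0.62), Tmsb10 (0.10), Hmgcs1 (0.16), Slc7a8 (-0.19), Qdpr (-1.17), Chga (-0.22), Chgb (-1.05), Scg5 (-0.41), Vgf (-1.45), Pcsk1 (-1.64), Cpe (-0.99), Ptprn (-1.15), Resp18 (-0.37), Dnajb9 (-0.43), Btg2 (0.57), Ccnd1 (-0.31), B2m (-2.04), Mboat4 (-0.11), Slc18a2 (-0.12), Clps (-0.99) and Pgc (-1.48). Other sign changes were those of Slc18a2 without TMM factors (-0.11) and in GFP+ libraries alone (-0.017), Cckbr with Ghrl at 2% (-0.034), Pgc without cells holding another type's marker (-0.095) and with the highest cell held to the second highest (-0.14), and Sst, whose differences ran from -3.43 to 1.61 when 1 library was left out (0.079 without GFP+ 1), in GFP+ libraries alone (2.12) and with Hdc at 0.2% (0.88).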
